A study of Mus musculus with 8 samples.

Results

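Most of the 31 genes described here mark macrophages and microglia-like cells, while Csf1 and Il34 encode ligands that these cells depend on. The 31 were chosen by gene name from a list of macrophage identity, complement, phagocytosis and activation genes, not by a threshold on measured values. All 31 were found among the 78317 genes of the deposited expression table. RNA was taken from the cochlear basilar membrane, the sheet on which hair cells and supporting cells sit, of mice at postnatal day 6. The 4 libraries titled hete carry the genotype tag WT, and the 4 titled homo carry the tag Dnajc17 cKO, a conditional knockout of the J-domain protein gene Dnajc17. These labels do not settle whether the hete animals hold a mutant allele. The sources used here do not name the driver of the deletion or the deleted exons. No label says that the libraries are from different animals, so the p-values cover only the spread among the 8 libraries, part of which may be technical.

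Macrophages settle in the cochlea before birth and remain in the spiral ganglion, the lateral wall and beneath the sensory epithelium. Their survival depends on the receptor CSF1R and its ligands CSF1 and IL-34, and the transcription factor PU.1, encoded by Spi1, sets their gene program. They engulf dying cells and debris, a task in which the complement protein C1q and receptors that signal through the adaptors TYROBP and FCER1G take part. Microglia are the macrophages of the brain, and several of their marker genes are also active in macrophages of other tissues.

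Values are TPM, a transcript unit scaled by length and by library total, so levels can be compared between genes. Dnajc17 itself stood at 22.06 to 26.51 TPM in hete and 18.04 to 31.08 TPM in homo, and the groups overlapped. In whole tissue this total cannot reveal a missing exon in part of the cells, so it does not check the labels. Sequencing depth is unknown, as TPM keeps no record of read numbers. Hair cell markers (Myo7a, Pou4f3, Otof, Atoh1, Gfi1 and Slc26a5) summed to 64.9 to 73.6 TPM in hete and 58.4 to 68.5 TPM in homo, so the labelled tissue was represented in every library. Of the 5 tested hair cell markers 4 stood lower and 1 higher in homo, and none passed the test. Otof had the smallest p, with 21.74 to 28.59 TPM in hete and 18.37 to 22.63 TPM in homo (log2 fold change -0.30; limma-trend, adjusted p = 0.692). The 6 supporting cell markers summed to 1253 to 1386 TPM in hete and 1421 to 1628 TPM in homo, without overlap. Most of that gap came from Tecta, which encodes the tectorial membrane protein alpha-tectorin, with means of 453 and 651 TPM. All 6 stood higher in homo, and none passed the test (limma-trend, adjusted p = 0.687 for Tecta). Otog also had groups without overlap, 64.79 to 81.87 TPM in hete and 83.66 to 88.75 TPM in homo (log2 fold change 0.28; limma-trend, adjusted p = 0.623). Sox2, Prox1, Fgfr3 and Gjb2 overlapped between groups, with log2 fold changes of 0.05, 0.26, 0.13 and 0.03. In this bulk tissue, fewer cells of a type and less RNA per cell cannot be told apart.

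Macrophage transcripts were present in every library. Apoe, the lipid carrier apolipoprotein E, was by far the highest of the 31 at 2540 to 2952 TPM, followed by C1qa, Csf1r and C1qc, and 21 of the 31 had a mean of at least 10 TPM. Cd163, a scavenger receptor for haemoglobin, was the lowest at 0.57 to 1.57 TPM. The 30 genes other than Apoe summed to 637 to 696 TPM in hete and 636 to 743 TPM in homo, ranges that overlapped. Without Csf1 and Il34 as well, the sums were 604 to 661 TPM in hete and 610 to 715 TPM in homo.

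Setting homo against hete asks whether deletion of Dnajc17 goes with other levels of macrophage transcripts. None of the 31 genes changed (limma-trend on log2(TPM + 1), adjusted p under 0.05 over 17811 genes averaging 1 TPM or more, a filter all 31 passed). Here and below, changed means passing this threshold, and a gene that did not pass may still differ. Over all tested genes 2 changed, 0.0112%, with 0.00561% in each direction. At an unadjusted p under 0.05 there were 2 of the 31, Il34 and Aif1, both lower in homo, which is 6.45% beside 6.05% of all tested genes (3.56% higher and 2.49% lower). Il34 alone had groups that did not overlap, 3.23% of the 31 beside 3.99% of all tested genes (2.58% higher and 1.41% lower). These shares were near the background. Of the 31 genes 16 stood higher and 15 lower in homo, with a median log2 fold change of 0.06, where the median of all tested genes was 0.02 and 56.3% stood higher. The absolute log2 fold change was under 0.25 for 26 of them (83.9%), beside 85.5% of all tested genes.

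**Figure D1:**
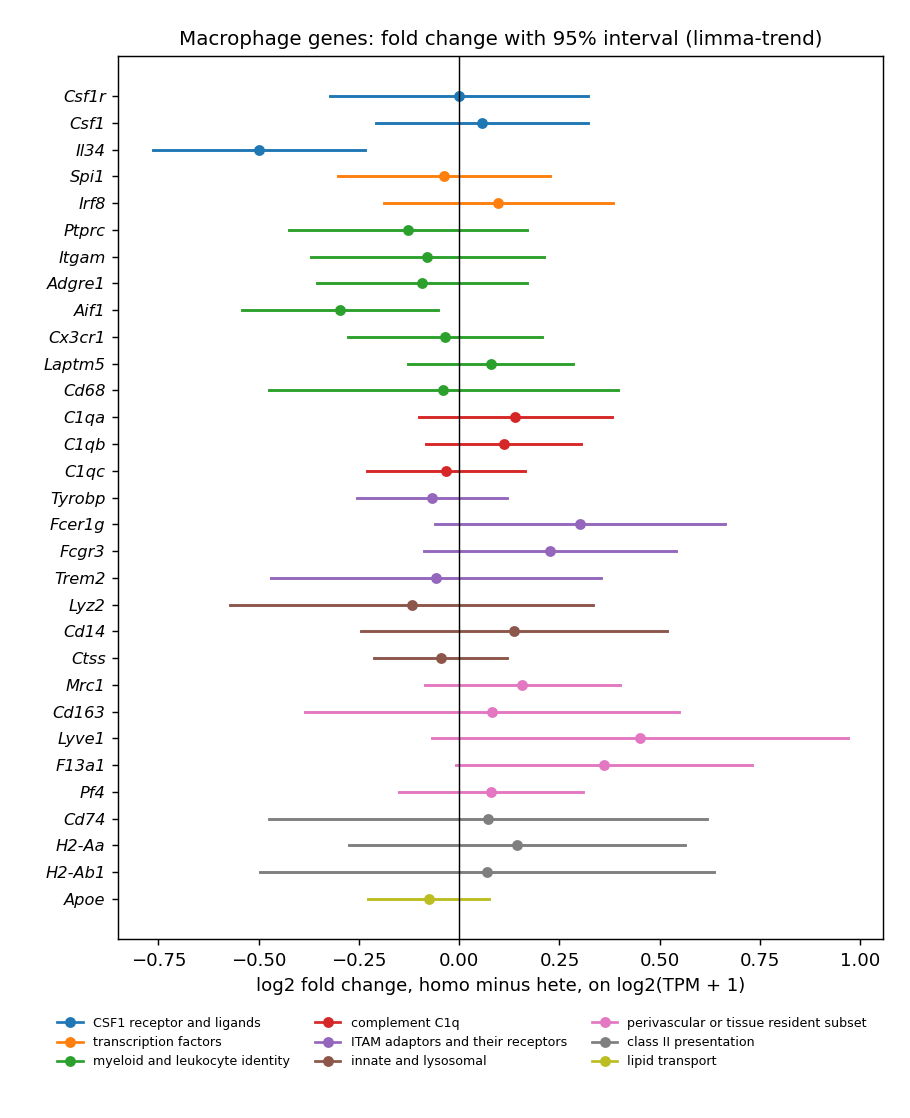
Log2 fold change of homo minus hete on the log2(TPM + 1) scale (x axis) for the 31 macrophage genes (y axis, coloured by role), with points for the limma-trend estimate and lines for its 95% interval. The intervals of 29 genes hold 0, and those of Il34 and Aif1 lie below it.

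Of the CSF1 receptor and its 2 ligands none changed, and differences between the 3 genes were not tested. Il34 (ENSMUSG00000031750, chromosome 8) encodes interleukin-34, a ligand of CSF1R that neurons and epithelial cells are known to make. Its TPM was 26.62, 19.88, 19.79 and 23.68 in the hete libraries (replicates 1 to 4, the order used throughout) and 17.02, 13.82, 17.48 and 14.04 in the homo libraries. Every homo library lay below every hete library. The homo mean of 15.6 ± 1.93 TPM was 0.693 times the hete mean of 22.5 ± 3.3 TPM (SD, n = 4 each). Homo minus hete came to a log2 fold change of -0.50 (95% interval -0.76 to -0.23, SE 0.12). Il34 ranked 58 by p among the tested genes and did not pass the adjustment (limma-trend, adjusted p = 0.551). With any library left out the log2 fold change lay between -0.55 and -0.42, and the adjusted p over all alternatives ranged from 0.435 to 0.877. The transcript of Il34 shares 75 aligned bases with the antisense gene Gm15895, which was listed at 0 to 0.77 TPM.

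Csf1 (chromosome 3), which encodes the other ligand, stood at 11.66 to 17.08 TPM over the 8 libraries, with its highest and lowest values both in homo. Its log2 fold change was 0.06 (SE 0.12). Csf1r (chromosome 18), the receptor that both ligands share, had 66.43, 61.10, 53.87 and 64.92 TPM in hete and 49.85, 80.32, 66.94 and 52.90 TPM in homo. The homo libraries held both the highest and the lowest value, and the means of 61.6 ± 5.61 and 62.5 ± 14.0 TPM (SD, n = 4 each) differed by less than either spread. The log2 fold change of Csf1r was -0.00 (95% interval -0.32 to 0.32), and its sign changed when hete replicate 1 or 4 or homo replicate 1 or 4 was left out. The transcript of Csf1r shares 873 aligned bases with its neighbour Hmgxb3, listed at 11.05 to 14.26 TPM, so reads may be shared there.

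Neither transcription factor of the lineage changed. Spi1, which encodes PU.1 and lies on chromosome 2, had 7.49, 7.47, 8.93 and 7.92 TPM in hete and 9.33, 7.41, 7.95 and 6.36 TPM in homo. The homo values enclosed the hete values at the upper and lower end (log2 fold change -0.04, SE 0.12). Irf8, an interferon regulatory factor that partners with PU.1, stood at 3.40 to 4.08 TPM in hete and 3.59 to 5.31 TPM in homo (0.10, SE 0.13).

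Of 7 genes of myeloid and leukocyte identity, 6 stood lower and 1 higher in homo, and none changed. Aif1 (ENSMUSG00000024397, chromosome 17) encodes IBA1, the calcium-binding protein widely used to stain macrophages and microglia. It had 13.82, 12.42, 13.46 and 12.27 TPM in hete and 10.43, 12.82, 9.67 and 8.96 TPM in homo. Of the homo libraries, 3 lay below all hete libraries and replicate 2 lay among them. Its log2 fold change came to -0.30 (95% interval -0.54 to -0.05, SE 0.11) with an adjusted p of 0.747 by limma-trend, and it lay between -0.39 and -0.23 with any library left out. Laptm5, a lysosomal membrane protein of blood-derived cells and the highest of the 7, had 22.59, 21.51, 19.23 and 23.28 TPM in hete and 23.13, 21.13, 26.30 and 21.29 TPM in homo. It was the 1 gene of the group that stood higher (0.08, SE 0.09).

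The other genes of the group had intervals that hold 0, and whether they differ from Aif1 was not tested. Cx3cr1, the fractalkine receptor, stood at 17.00 to 20.33 TPM in hete and 14.54 to 19.96 TPM in homo (log2 fold change -0.03, SE 0.11). Adgre1, which encodes F4/80, stood at 10.49 to 15.58 TPM in hete and 11.32 to 13.51 TPM in homo (-0.09, SE 0.12). Cd68, a lysosomal glycoprotein, had nearly the same mean in both groups, 17.3 ± 2.02 and 17.3 ± 5.05 TPM (SD, n = 4 each), but a wider spread in homo. The pan-leukocyte gene Ptprc, which encodes CD45, and Itgam, which encodes the integrin CD11b, were low at 2.16 to 3.23 and 2.19 to 3.17 TPM. The transcript of Itgam is 99.9% identical over 3454 aligned bases to that of the overlapping gene Gm49368, which was listed at 0.26 to 0.96 TPM, so its level is uncertain to that extent.

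**Figure D2:**
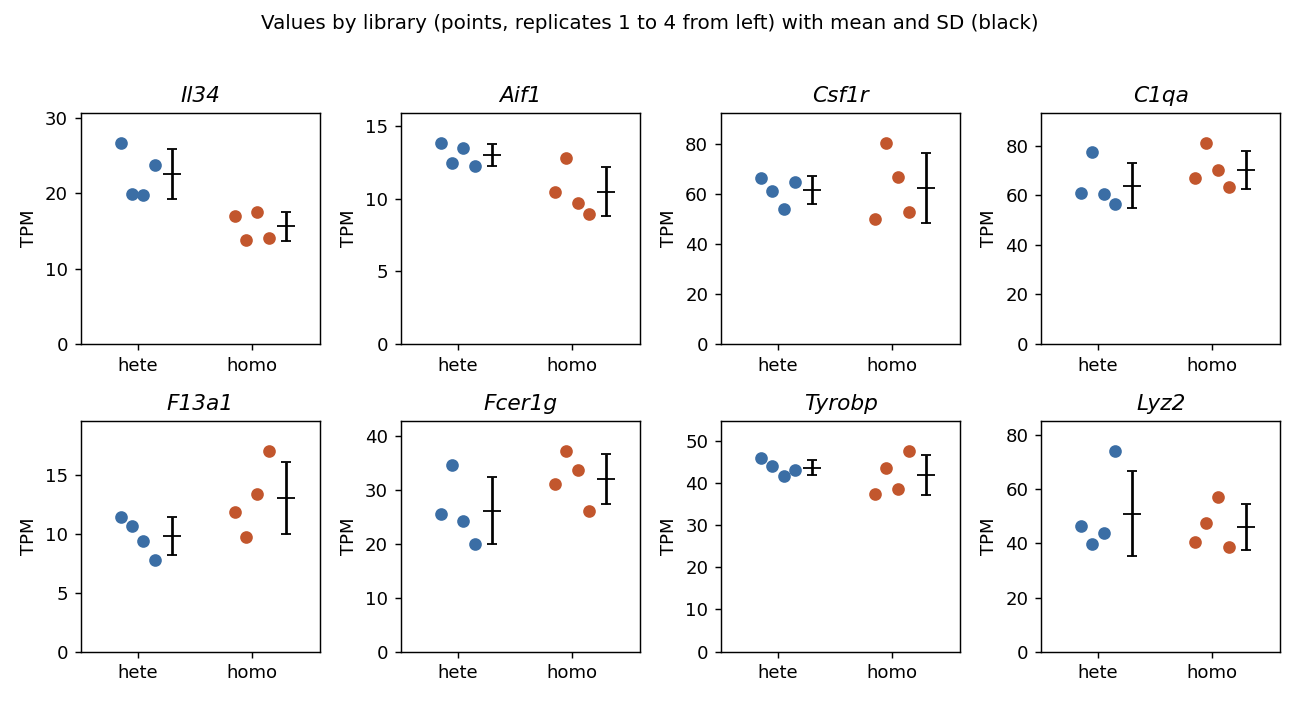
TPM (y axes, from 0) of 8 genes in the 4 hete and 4 homo libraries (points, replicates 1 to 4 from left) with the group mean and SD in black. The groups are apart for Il34 and overlap for the other 7, with homo replicate 2 the 1 homo library within the hete range of Aif1.

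The 3 chains of C1q, the complement component that tags debris and synapses for removal, were among the highest macrophage transcripts. The genes C1qb, C1qc and C1qa lie next to each other on chromosome 4. C1qa had 60.91, 77.29, 60.70 and 56.65 TPM in hete and 66.94, 81.05, 70.14 and 63.15 TPM in homo. Replicate 2 was the highest library of each group, and the groups overlapped (log2 fold change 0.14, SE 0.11, 95% interval -0.10 to 0.38). C1qb stood at 42.48 to 51.45 TPM in hete and 43.68 to 54.17 TPM in homo (0.11, SE 0.09), and C1qc at 53.36 to 64.90 and 50.80 to 61.52 TPM (-0.03, SE 0.09).

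Promoter windows of C1qb and C1qc, and of the other genes with an entry, were searched for a core of the PU.1 binding motif. Windows of 300 bases, 250 before to 50 after the start, came from RefSeq on GRCm38.p6, where 21 of the 31 genes had an entry; C1qa was not among them. The windows of C1qb (chr4:136886151-136886450, minus strand) and C1qc (chr4:136892865-136893164, minus strand) are shown to compare neighbouring genes of 1 complex. Capitals mark GAGGAAG on either strand.
C1qb: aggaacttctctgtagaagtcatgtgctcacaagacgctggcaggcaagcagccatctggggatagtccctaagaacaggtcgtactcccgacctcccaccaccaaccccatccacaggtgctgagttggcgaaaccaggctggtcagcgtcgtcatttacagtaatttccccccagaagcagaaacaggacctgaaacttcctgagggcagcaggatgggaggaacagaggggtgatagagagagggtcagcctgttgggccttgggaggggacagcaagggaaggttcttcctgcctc
C1qc: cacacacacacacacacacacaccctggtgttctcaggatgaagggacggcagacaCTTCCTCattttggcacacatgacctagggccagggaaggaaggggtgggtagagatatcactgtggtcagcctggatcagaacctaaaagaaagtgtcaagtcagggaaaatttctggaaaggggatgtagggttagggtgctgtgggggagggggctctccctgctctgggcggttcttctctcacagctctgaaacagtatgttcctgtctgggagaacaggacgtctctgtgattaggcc
The C1qc window holds the motif once, on the opposite strand, and that of C1qb does not hold these letters. Of the 21 genes with a window, 9 hold GAGGAAG on either strand in at least 1 window (C1qc, Ctss, F13a1, Fcgr3, Itgam, Laptm5, Mrc1, Pf4 and Trem2), 42.9%, beside 15.4% of all 27025 genes in the table. The composite site of PU.1-type and interferon regulatory factors (GGAA, then any 2 bases, then GAAA, on either strand) was found for Cd68 alone, 4.76% beside 3.16% of all genes. A match is a description of the sequence and not a measured binding site.

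Of the activating adaptors and their receptors 2 stood higher and 2 lower in homo, none changed, and all 4 intervals hold 0. Tyrobp, which encodes DAP12, the adaptor through which TREM2 signals, had 45.76, 44.01, 41.63 and 43.04 TPM in hete and 37.27, 43.53, 38.58 and 47.57 TPM in homo. The homo libraries again enclosed the hete libraries (log2 fold change -0.07, SE 0.08). Trem2, a lipid-sensing receptor, stood at 11.37 to 20.04 TPM in hete and 12.09 to 18.40 TPM in homo (-0.06, SE 0.18), and its sign turned without hete replicate 1, hete replicate 3 or homo replicate 1.

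Fcer1g, the gamma chain shared by Fc receptors, and Fcgr3, a receptor for immunoglobulin G that signals through it, stood higher in homo without passing the test. Fcer1g had 19.98 to 34.78 TPM in hete and 26.15 to 37.32 TPM in homo (log2 fold change 0.30, SE 0.16), with an adjusted p of 0.87 by limma-trend. Without hete replicate 4, its lowest library, the log2 fold change of Fcer1g was 0.19, and without hete replicate 2 it was 0.44. Fcgr3 had 14.49 to 21.98 and 17.47 to 23.18 TPM (0.23, SE 0.14). Its transcript is 96.3% identical over 512 aligned bases to that of the inhibitory receptor gene Fcgr2b, listed at 4.87 to 8.24 TPM, so reads may be shared.

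Of the genes of innate sensing and the lysosome, Lyz2 had the highest level and Cd14 the lowest. Lyz2, the lysozyme of macrophages and neutrophils, had 46.29, 39.88, 43.76 and 74.24 TPM in hete and 40.63, 47.67, 57.31 and 38.67 TPM in homo. Hete replicate 4 was the highest library, and without it the log2 fold change went from -0.12 (SE 0.20) to 0.07. The paralog Lyz1, 95.8% identical over 1264 aligned bases, was also highest in hete replicate 4, at 1.94 TPM and at most 0.25 TPM elsewhere. Ctss, the protease cathepsin S, was among the most even of the 31 at 35.34 to 42.77 TPM (-0.05, 95% interval -0.21 to 0.12). Cd14, a co-receptor for bacterial lipopolysaccharide, stood at 3.72 to 4.37 TPM in hete and 3.02 to 6.36 TPM in homo, so that homo held both ends of its range.

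Genes that mark perivascular and tissue-resident macrophages stood higher in homo for all 5 members, and none changed (median log2 fold change 0.16). Of all tested genes 56.3% stood higher. Pf4, a chemokine made by these macrophages and by platelets, had 51.31, 51.22, 49.82 and 45.23 TPM in hete and 47.81, 58.30, 44.09 and 60.25 TPM in homo (0.08, SE 0.10). F13a1, the coagulation factor XIII A chain, stood at 7.75 to 11.47 TPM in hete and 9.77 to 17.06 TPM in homo (0.36, SE 0.17, 95% interval -0.01 to 0.73; limma-trend, adjusted p = 0.827). Lyve1, a hyaluronan receptor of lymphatic endothelium and of macrophages along vessels, had 3.53, 5.18, 2.10 and 1.88 TPM in hete and 3.61, 5.11, 4.53 and 4.60 TPM in homo (0.45, SE 0.23; adjusted p = 0.87, limma-trend).

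Hete replicate 4 held the lowest value of 4 of these 5 genes, Mrc1, Cd163, Lyve1 and F13a1, and the lowest hete value of Pf4. Without it the log2 fold change was 0.30 for Lyve1 and 0.26 for F13a1, and that of Cd163 was -0.06 in place of 0.08. Without homo replicate 4, its highest library, F13a1 was at 0.23. Mrc1, the mannose receptor CD206, lies on chromosome 2 and stood at 25.89 to 33.39 TPM in hete and 30.60 to 39.74 TPM in homo (0.16, SE 0.11). Lyve1 and Mrc1 are also active in endothelium. The 8 endothelial markers summed to 158 to 176 TPM in hete and 152 to 194 TPM in homo, with Pdpn at 78.70 to 107.85 TPM. Over the 8 libraries Pearson's r with this sum was 0.04 for Lyve1 and -0.03 for Mrc1 (two-sided exact permutation p = 0.921 and 0.938, adjusted p = 0.956 for both over 34 relations). Spearman's rho was -0.19 and -0.17. Without homo replicates 1 and 3 r was -0.22 and -0.20. How much of either transcript came from endothelium was not tested.

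The promoter window of Mrc1 (chr2:14229164-14229463, plus strand) holds GAGGAAG on the opposite strand at 2 places, in capitals, and that of Aif1 (chr17:35176003-35176302, minus strand) does not hold these letters. They are shown because Mrc1 and Aif1 stood on opposite sides of 0, though the interval of Mrc1 holds 0. Genes with the motif stood on both sides. Itgam, Trem2, Ctss and C1qc were lower in homo, and Mrc1, F13a1, Fcgr3, Laptm5 and Pf4 higher. A relation of the motif to direction was not tested.
Mrc1: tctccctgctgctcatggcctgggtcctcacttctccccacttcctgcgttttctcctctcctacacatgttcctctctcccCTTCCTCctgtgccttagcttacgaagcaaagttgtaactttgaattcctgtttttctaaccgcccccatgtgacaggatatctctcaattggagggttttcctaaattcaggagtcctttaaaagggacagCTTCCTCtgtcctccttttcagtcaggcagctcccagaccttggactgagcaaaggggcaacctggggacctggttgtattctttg
Aif1: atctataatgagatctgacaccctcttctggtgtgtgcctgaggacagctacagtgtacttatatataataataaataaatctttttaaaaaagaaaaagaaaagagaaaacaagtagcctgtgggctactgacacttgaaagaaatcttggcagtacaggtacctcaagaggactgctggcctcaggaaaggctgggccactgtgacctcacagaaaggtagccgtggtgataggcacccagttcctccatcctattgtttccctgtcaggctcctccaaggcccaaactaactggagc

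Class II antigen presentation was low in the tissue. Cd74, the invariant chain that escorts class II molecules, had 4.11, 8.45, 6.13 and 9.41 TPM in hete and 7.01, 8.45, 8.93 and 4.83 TPM in homo, and the groups overlapped over most of their range (log2 fold change 0.07, 95% interval -0.47 to 0.62). The class II chains H2-Aa and H2-Ab1 stood at 1.45 to 3.26 and 1.23 to 3.75 TPM. Their intervals were wide, -0.27 to 0.56 for H2-Aa and -0.50 to 0.64 for H2-Ab1, so small differences were not detectable here.

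Apoe had 2867.28, 2952.43, 2952.09 and 2817.64 TPM in hete and 2540.26, 2872.36, 2662.28 and 2938.85 TPM in homo. Homo replicates 1 and 3 were the lowest, and the other two lay within the hete range (log2 fold change -0.08, SE 0.07, 95% interval -0.23 to 0.08). Glia and other cochlear cells also make Apoe. The 6 glial markers summed to 1369 to 1847 TPM in hete and 1349 to 1982 TPM in homo, and Pearson's r of Apoe with their sum over the 8 libraries was 0.08 (Spearman's rho 0.21; two-sided exact permutation p = 0.884 for r and 0.619 for rho, adjusted p = 0.956 and 0.854 over 34 relations; r = -0.39 without hete replicate 1 and homo replicate 3).

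**Figure D3:**
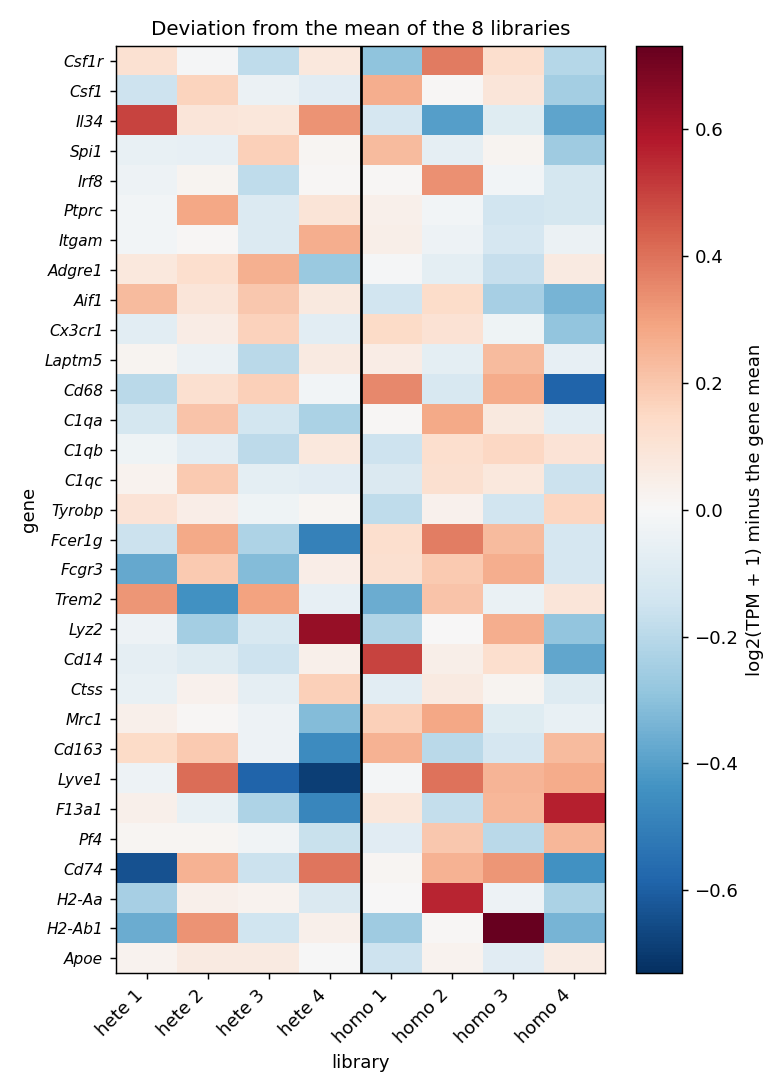
Deviation of log2(TPM + 1) from the mean of the 8 libraries (colour scale) for the 31 macrophage genes (rows) in each library (columns, hete left of the line). Il34 is red in the 4 hete and blue in the 4 homo columns, and homo replicate 4 holds the lowest value of 9 of the 31 genes.

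Spread between libraries was as large for these genes as for the rest of the table. The residual SD of the fit had a median of 0.17 over the 31 genes and 0.16 over all tested genes on the log2(TPM + 1) scale. Homo replicate 4 held the lowest value of 9 genes (Cd68, Cx3cr1, Aif1, C1qc, Lyz2, Cd14, Ctss, Spi1 and Csf1) and the highest of 3 (Tyrobp, F13a1 and Pf4). Hete replicate 4 held the lowest value of 7 genes, and homo replicate 2 the highest of 6.

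Genes whose products work together were compared in 12 pairs over the 8 libraries, and none passed after adjustment over the 12. The strongest was C1qa with C1qc, with Pearson's r = 0.76 and Spearman's rho = 0.62 (two-sided exact permutation p = 0.0335 and 0.115, adjusted p = 0.402 and 0.668). Without replicate 2 of each group, the libraries farthest from the median of C1qa, r was 0.36. With any 1 library left out r lay between 0.67 and 0.82. On deviations from the group means r was 0.91 for C1qa with C1qc (exact permutation, adjusted p = 0.00149). That permutation moved values between groups, which deviations from group means do not allow, so no conclusion is drawn from this p. Fcer1g with Fcgr3 had r = 0.63 and rho = 0.74 (exact permutation p = 0.101 and 0.0458, adjusted p = 0.489 and 0.55), and 0.95 without hete replicate 4 and homo replicate 2. The receptor Csf1r had r = -0.11 with its ligand Csf1 and 0.04 with Il34 (rho -0.07 and 0.07; exact permutation p = 0.795 and 0.929 for r and 0.882 for both rho, adjusted p = 0.867 and 0.929 for r and 0.882 for both rho). Without homo replicates 1 and 2 these r were 0.37 and 0.62.

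Other genes of macrophage biology were counted in lists. Of 119 genes in 9 lists 93 were tested, and none changed in either direction. At an unadjusted p under 0.05 there were 5, 5.38% beside 6.05% of all tested genes, 2 higher and 3 lower. Of the 93 genes 57 stood higher, beside 56.3% of all tested genes. Of the microglia list 9 were tested, 4 higher and 5 lower, with P2ry12, a purine receptor of resting microglia, at 7.70 to 12.45 TPM and Tmem119, also active in bone-forming cells, at 30.99 to 42.95 TPM. The smallest p of that list were those of Olfml3 (log2 fold change 0.22, SE 0.14) and Siglech (-0.24, SE 0.17). Fcrls was not found in the table by name. Of the border and tissue macrophage list 11 were tested, 7 higher and 4 lower, led by Dab2, an endocytic adaptor (0.20, SE 0.08), and Ednrb (0.22, SE 0.09). Dab2 stood at 57.74 to 83.17 TPM and Ednrb at 70.46 to 100.35 TPM, and the part of macrophages in these values was not tested. Timd4 and Ccr2, the latter a receptor of blood-derived monocytes, were under 1 TPM in every library.

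Complement beyond C1q had 13 tested genes, 8 higher and 5 lower. C4b, which encodes a component that C1q activation cleaves, had 11.42, 12.42, 13.58 and 15.90 TPM in hete and 10.44, 8.49, 9.78 and 10.41 TPM in homo. Its groups did not overlap (log2 fold change -0.41, SE 0.11, and an adjusted p of 0.649 by limma-trend), the 1 gene of the 93 of which this held, 1.08% beside 3.99% of all tested genes. C1qbp followed in this list (0.15, SE 0.07). Of the class II pathway 6 were tested, 3 in each direction, with Ifi30, a lysosomal thiol reductase, at -0.26 (SE 0.09) and the co-stimulator Cd86 at 0.33 (SE 0.15).

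No gene of signalling or phagocytosis changed. Of Fc and ITAM (immunoreceptor tyrosine-based activation motif) signalling genes 12 were tested, 10 higher (83.3% beside 56.3% of all tested genes) and 2 lower, with Fcgr1 at 0.32 (SE 0.17). Of myeloid transcription factors 12 were tested, 9 higher (75.0% beside the same 56.3%) and 3 lower, with Irf5 at 0.16 (SE 0.14) and Ikzf1 at 0.15 (SE 0.15). Phagocytic receptors and bridges had 13 tested, 6 higher and 7 lower, with the integrin chains Itgav at -0.23 (SE 0.10) and Itgb5 at -0.08 (SE 0.07). Of lipid- and damage-associated genes 12 were tested, 6 in each direction, with Axl at 0.13 (SE 0.08) and Fabp5 at 0.17 (SE 0.18). Of 15 inflammatory output genes 5 were tested, 4 higher and 1 lower, led by Cxcl10 (0.26, SE 0.36) and Il18 (0.02, SE 0.11). Il1b, Tnf, Il6, Ccl4, Arg1, Il1a, Nlrp3 and Ptgs2 were under 1 TPM in every library, and Il10 was listed at 0 in all 8.

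Markers of other blood-derived cells were given as sums over whole lists, each with some members under 1 TPM in every library and others above. The 7 B cell markers summed to 70.0 to 102 TPM in hete and 46.0 to 103 TPM in homo, nearly all of it from Ighm, the immunoglobulin mu chain, at 43.80 to 100.58 TPM. Of the other B cell markers, Ms4a1, Pax5 and Cd79a were under 1 TPM in every library, and Cd22 reached 2.76 TPM. The 9 T and NK cell markers summed to 5.05 to 5.90 TPM in hete and 4.27 to 8.52 TPM in homo. Cd4, which macrophages can also express, stood at 1.41 to 2.99 TPM, the T cell receptor genes Cd3e and Trac reached 2.31 and 2.35 TPM, and Cd3d and Cd3g stayed under 1 TPM. The 8 dendritic cell markers summed to 9.99 to 11.1 TPM in hete and 9.08 to 10.6 TPM in homo, with Zbtb46 at 5.93 to 7.15 TPM and Flt3, Xcr1, Clec9a, Cd209a, Ccr7 and Itgax under 1 TPM in every library. The 7 mast cell markers summed to 19.7 to 25.2 TPM in hete and 16.5 to 22.1 TPM in homo, with the receptor gene Kit at 12.38 to 18.14 TPM, Tpsb2 at 1.09 to 3.67 TPM, Cma1 at 0.69 to 2.94 TPM and Fcer1a listed at 0. The 8 monocyte markers summed to 143 to 175 TPM in hete and 154 to 196 TPM in homo, most of it from Fn1, the matrix protein fibronectin, at 131.77 to 186.80 TPM, while Ccr2 and Cd177 were under 1 TPM. The part of these cells in the values of the 31 genes was not tested. The 10 neutrophil markers summed to 6.12 to 8.49 TPM in hete and 12.1 to 58.3 TPM in homo, ranges that did not overlap. Homo replicate 1 alone reached 58.3 TPM, with S100a9 at 33.10 TPM there and 4.94 to 5.67 TPM in the other homo libraries. Of the 10 markers 4 were tested, all higher in homo, and none changed (limma-trend, adjusted p = 0.727 for S100a9). Of these 10, Mpo, Elane, Retnlg, Cxcr2 and Ly6g were under 1 TPM in every library, and most of the sum came from S100a8 and S100a9, calcium-binding proteins of the granulocyte cytosol, and Camp. Their part in the values of Lyz2, Fcer1g and Fcgr3, which neutrophils also express, was not tested. The 7 erythroid markers summed to 2467 to 5330 TPM in hete and 3113 to 4076 TPM in homo. The authors' deposited table of gene ontology enrichment lists 387 terms, 13 of them with an adjusted p under 0.05 by the authors' test. Myeloid leukocyte migration is among the 387. None of the 31 genes is named in any term, while S100a8, S100a9, Ngp, Ltf, Chil3 and Cxcl10 are.

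Osteoclasts, the bone-resorbing relatives of macrophages, share several of the 31 genes, and their markers varied widely between libraries of 1 group. The sum of 8 osteoclast markers, mainly the bone-matrix proteases Ctsk and Mmp9 and the acid phosphatase Acp5, was 114, 189, 146 and 156 TPM in hete and 245, 121, 223 and 68.1 TPM in homo. The homo libraries enclosed the hete range at both ends. Cd68 had 14.71, 18.49, 19.27 and 16.76 TPM in hete and 21.97, 15.54, 20.70 and 10.98 TPM in homo. Both Cd68 and the marker sum were highest in homo replicate 1 and lowest in homo replicate 4.

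These relations were chosen after the values were seen. Over the 8 libraries Cd68 had Pearson's r = 0.97 and Spearman's rho = 0.93 with the summed osteoclast markers on the log2 scale (two-sided exact permutation p = 0.000397 and 0.00223, adjusted p = 0.0135 and 0.0759 over 34 relations). It held at r = 0.88 without homo replicates 1 and 4 and at 0.97 within groups. Csf1, which osteoclasts need to form, had r = 0.90 and rho = 0.88 (exact permutation p = 0.00273 and 0.00724, adjusted p = 0.0433 and 0.123), and 0.75 without these libraries. Tyrobp went the other way, with r = -0.88 and rho = -0.83 (exact permutation p = 0.00382 and 0.0154, adjusted p = 0.0433 and 0.174), and -0.74 without them. The other 28 of the 31 genes did not pass the adjustment, nor did any rho. With 1 library left out, r lay between 0.92 and 1.00 for Cd68, between 0.85 and 0.93 for Csf1 and between -0.96 and -0.84 for Tyrobp. The adjusted p then reached 0.179, 0.179 and 0.234 at most, with 7 libraries in the exact test.

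**Figure D4:**
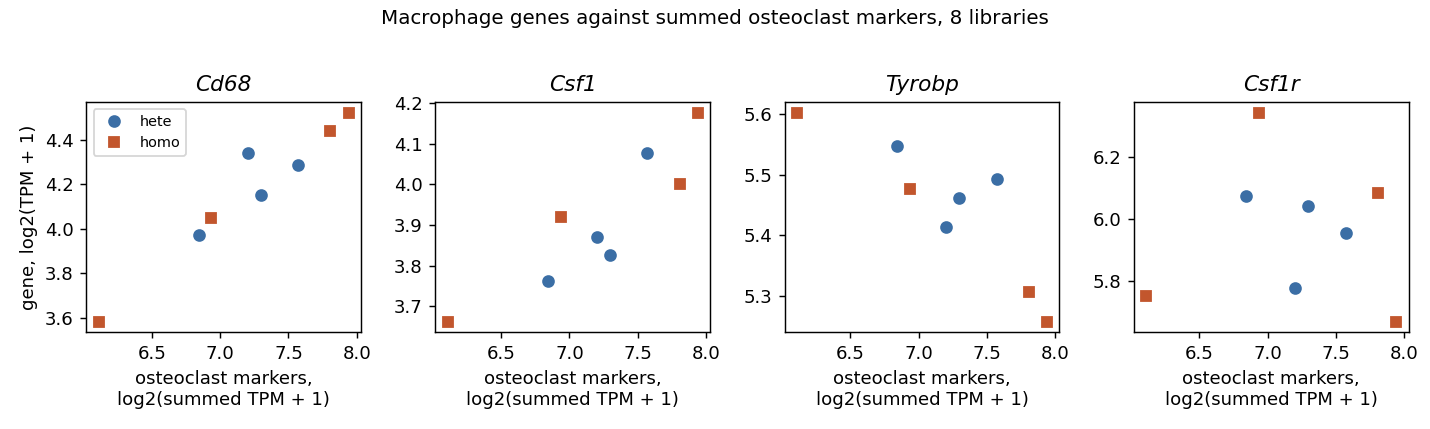
Log2(TPM + 1) of Cd68, Csf1, Tyrobp and Csf1r (y axes) against log2 of the summed TPM of 8 osteoclast markers plus 1 (x axes) in 4 hete (circles) and 4 homo (squares) libraries. Cd68 and Csf1 rise and Tyrobp falls along the x axis, homo replicates 1 and 4 lie at its ends, and Csf1r shows no such order.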

How the data were processed

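The expression table holds TPM as deposited by the authors for 78317 genes. Library totals lie within 0.77 of the TPM total. Per the submitters' processing notes, fastp, HISAT2, StringTie, RSEM, DESeq2 and GRCm39 were used, without versions or roles. Libraries were made from 1 µg of total RNA with a stranded mRNA kit, per the labels' protocols. The p-value columns of the enrichment table are the authors' and were not recomputed. The table of splicing events was not used.

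Log2(TPM + 1) was fitted over the genes averaging 1 TPM or more with limma 3.58.1 in R 4.3.3 (eBayes with trend and robust options, genotype as the only term), with Benjamini-Hochberg adjustment and a threshold of 0.05. No count test was run on TPM. This scale understates fold changes of low genes. The steps were tested on simulated data with planted changes. Of those of 1.5-fold, 2-fold and 4-fold, 49.3%, 76.1% and 97.0% were recovered, so many differences of 1.5-fold or less would be missed. In the simulation 158 genes passed, beside 2 in the measured data. The adjustment is stricter where fewer genes pass, so these shares overstate what would be recovered in the measured data. Correlations were tested by exact permutation of the libraries. Other transcripts alike were sought with blastn 2.17.0 in GENCODE M21, which, like the promoter table, is on GRCm38, so chromosomes come from that build. Figures were drawn with matplotlib 3.10.9.

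The 31 genes, the role groups, the 9 pathway and 12 marker lists and the rule for named genes were chosen with earlier results of these data known. By that rule, library values are given for genes with an unadjusted p under 0.05, without overlap, or highest in their role group, and 2 genes are named per pathway list (1 is not reported here); others, such as Lyve1, Cd68 and C4b by library, were chosen after their values were seen. Alternatives were quantile normalization, rescaling over protein-coding nuclear genes, no filter, a filter of 5 TPM in 4 libraries, a pseudocount of 0.1, eBayes without the robust option, a replicate block and each library left out.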

Additional observations from a re-analysis of the deposited data

How the results depend on the processing

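No gene of the 31 that was tested changed under any of the 15 alternatives (all 31 were tested in 14, and 23 with at least 5 TPM in 4 libraries), and 432 of 457 values of single genes kept their direction. The other 25, in 14 genes, turned sign when a library was left out. With each library left out in turn the log2 fold change ran from -0.12 to 0.042 for Spi1, -0.057 to 0.16 for Cd163, -0.023 to 0.15 for Csf1, -0.16 to 0.15 for Cd68, -0.22 to 0.053 for Trem2, -0.13 to 0.23 for Cd74, -0.13 to 0.098 for Csf1r, -0.017 to 0.24 for H2-Aa, -0.077 to 0.026 for C1qc, -0.075 to 0.0042 for Ctss, -0.0035 to 0.29 for Cd14, -0.088 to 0.056 for Cx3cr1, -0.23 to 0.073 for Lyz2 and -0.16 to 0.19 for H2-Ab1. The median over the 31 genes was 0.06, ran from -0.03 to 0.08 with a library left out, and was -0.033 with at least 5 TPM in 4 libraries, where fewer genes were tested. Over all genes, 1 was higher and 1 lower by limma-trend. The number higher was 0 with no filter on low values and ran from 0 to 3 with a library left out, and the number lower was 2 with at least 5 TPM in 4 libraries and ran from 1 to 3; the cause was not tested.

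Among pairs, r turned sign for C1qa with C1qb (-0.070 to 0.39 with a library left out), C1qb with C1qc (-0.0038 to 0.42), Csf1r with Csf1 (-0.46 to 0.35), Csf1r with Il34 (-0.19 to 0.64), Csf1r with Spi1 (-0.86 to 0.032) and Mrc1 with Cd163 (-0.18 to 0.89). On deviations from group means C1qa with C1qc reached 0.91. Without Ctsk in the osteoclast list r was 0.95 for Cd68, 0.87 for Csf1 and -0.86 for Tyrobp, with adjusted p of 0.027, 0.0579 and 0.0579 (exact permutation).

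With the replicate number as a block, 0 genes were higher over all genes in place of 1, and none of the 31 changed. The labels do not say that a number pairs libraries. Same-numbered libraries had correlations of deviations of -0.08 to 0.05, and not every library correlated best with its own number. With 4 libraries per group these values cannot settle whether a number pairs libraries. Depth is unknown. The widest intervals of the 31 were those of H2-Ab1, Cd74 and Lyve1, all under 10 TPM.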
